A study of Mus musculus with 10 samples.

Results

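The 31 genes described here encode sensors, transcription factors, chaperones and enzymes of the unfolded protein response and the integrated stress response. They were chosen by function, as a fixed list of human Ensembl identifiers with their symbols, from a table of 33538 human genes. All 31 passed the filter on low counts, beside 16013 genes in all. Expression was measured by mRNA sequencing in 10 flank tumours that grew in female nude mice from DAOY cells, a long-established line of human medulloblastoma (a childhood tumour of the cerebellum). Nude mice are immunodeficient animals that accept human grafts but keep their own blood vessels, fibroblasts and innate immune cells. Control mice ate ordinary chow (n = 3), others received DHA oil, a source of docosahexaenoic acid (n = 3), or fish oil (n = 4). The fish oil label was taken as the arm that combined docosahexaenoic with eicosapentaenoic acid, another long-chain omega-3 fatty acid. The labels give 30 days of treatment for every tumour, and no group carried an engineered gene. DAOY is 1 line, the age of the mice is not given in the sources used here, and nothing ties a library to a separate mouse, so the tests rest on the spread among these libraries, which may be partly technical.

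The unfolded protein response is set off when unfolded proteins gather in the endoplasmic reticulum (ER). The membrane sensor ERN1 (IRE1) splices XBP1 mRNA, ATF6 is cut to release a transcription factor, and the kinase PERK lowers general translation while favouring that of ATF4. The integrated stress response shares the ATF4 step with sensors of amino acid shortage, haem shortage and viral RNA. Its targets include amino acid and one-carbon enzymes as well as the regulators DDIT3 (CHOP), TRIB3 and CHAC1. Polyunsaturated fatty acids alter membrane lipids, which the ER sensors also respond to. Gene counts show neither XBP1 splicing nor ATF6 cleavage nor the translation of ATF4, so only mRNA levels are described.

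Total counts ranged from 6187116 to 10035702 per library, and the 31 genes held between 0.552% and 0.724% of them, with the highest share in fish oil replicate 4. That library also stood apart on the first principal component of all genes (52.9), with fish oil replicate 2 next (21.4), while the other libraries lay between -19.1 and 1.71. Levels are given as CPM, counts scaled to the effective total of each library. CPM does not correct for transcript length, so levels are compared between libraries and not between genes. In bulk tumours, fewer cells of a type and less RNA per cell cannot be told apart. Symbols were at hand for these 31 genes only, so markers of host tissues and of the DAOY lineage were not analysed here. No base sequence is shown, because the reference tables used here cover mouse genes only.

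None of the 31 genes was called at an adjusted p under 0.05 in any comparison of diets. With DHA oil set against control, edgeR's quasi-likelihood test called 0 of 31, against 0% of all genes tested. Fish oil set against control gave 0 of 31, where 0.00624% of all genes were called. The direct comparison of the oils gave 0 of 31, where 0% were called, and both oils together set against control gave 0 of 31, where 0.131% were called. DESeq2 and limma-voom also called 0 of 31 in each of these comparisons. Of all 16013 genes, in the same order, DESeq2 called 11, 20, 1 and 27, and limma-voom called 3, 0, 0 and 1. With edgeR, 1, 1, 1 and 1 of the 31 genes had an unadjusted p under 0.05, against 2.74%, 3.48%, 4.84% and 2.62% of all genes tested. They were MANF, SDF2L1, PPP1R15A and again SDF2L1. These shares, 3.23% each, lie near the background.

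The differences were bounded as well as undetected. With DHA oil, the 95% intervals of 31 of 31 genes lay within a 2-fold change in either direction, and those of 21 lay within 0.5 on the log2 scale. With fish oil the counts were 30 and 23, with SDF2L1 the exception to the first. Between the oils they were 31 and 23. Of all 16013 genes tested, 13287 and 7053 met these limits with DHA oil and 13564 and 7166 with fish oil. Between the oils, 13386 and 6862 of all genes met them. The intervals are per gene and were not adjusted for the number of genes. The comparisons share libraries, the controls or an oil group, and are not independent.

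**Figure D1:**
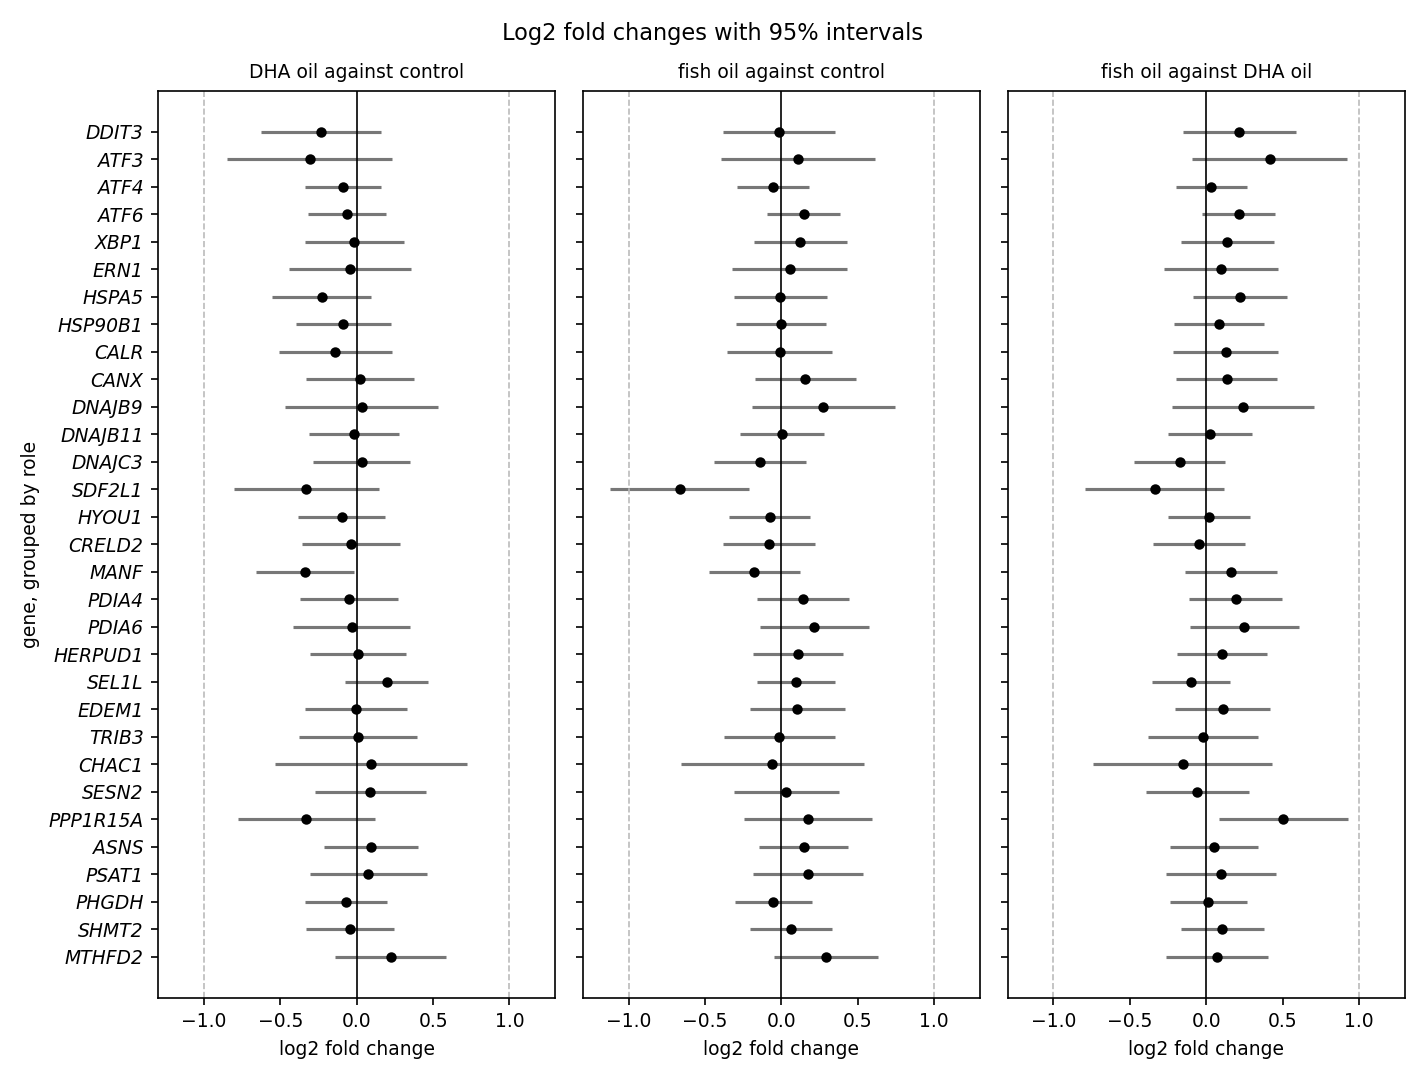
Log2 fold change of each of the 31 genes (points) with its 95% interval (lines) in 3 comparisons of diets. The horizontal axis is log2 fold change from edgeR, dashed lines mark a 2-fold change, and genes are grouped by role. Only SDF2L1, in fish oil against control, has an interval that reaches past a dashed line (-1.12).

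The sensors and transcription factors sit at the top of the response. ATF4 (ENSG00000128272), the factor at the centre of the integrated stress response, stood at 320, 382 and 337 CPM in control replicates 1, 2 and 3, at 320, 337 and 319 CPM in the DHA oil replicates and at 341, 318, 322 and 351 CPM in the fish oil replicates. Control replicate 2 was the highest library and the diets overlapped. Its log2 fold change was -0.09 ± 0.12 (SE) with DHA oil and -0.06 ± 0.11 (SE) with fish oil, and the intervals of -0.34 to 0.16 and -0.29 to 0.18 are the narrowest of the list in these comparisons.

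XBP1 (ENSG00000100219), the factor activated by ERN1, was measured at 72.3, 72.9 and 80.3 CPM in control, 84.7, 64.2 and 74.4 CPM in DHA oil and 69.8, 85.8, 72.0 and 99.6 CPM in fish oil. The fish oil libraries spanned all the control values, with replicate 4 the highest of the 10. For XBP1 the log2 fold change was -0.02 (95% interval -0.34 to 0.31) with DHA oil and 0.12 (-0.18 to 0.43) with fish oil. The latter was -0.08 without fish oil replicates 2 and 4. ATF6 stood at 75.9, 78.9 and 76.2 CPM in control, 79.2, 71.7 and 70.0 CPM in DHA oil and 76.1, 86.9, 82.3 and 95.5 CPM in fish oil. Fish oil replicates 2, 3 and 4 were the highest libraries and DHA oil replicates 2 and 3 the lowest, while DHA oil replicate 1 lay above all controls and fish oil replicate 1 among them. Fish oil differed from DHA oil by 0.21 on the log2 scale (-0.03 to 0.45, adjusted p = 0.875). ERN1 had one of the smallest changes of the list with both oils against control, at 0.01 (-0.33 to 0.35).

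DDIT3, the factor linked to cell death under lasting ER stress, stood at 33.1, 27.8 and 40.2 CPM in control, 27.8, 24.0 and 34.2 CPM in DHA oil and 27.2, 35.2, 39.7 and 31 CPM in fish oil. The highest and lowest libraries came from control and DHA oil, and all diets overlapped. Its log2 fold change was -0.23 (-0.63 to 0.16) with DHA oil and -0.02 (-0.38 to 0.35) with fish oil. The former was -0.09 without control replicate 3 and -0.38 without DHA oil replicate 3. ATF3, an early stress-induced factor, had the widest range of the 31 over the libraries on the log2 CPM scale (1.21), ahead of DNAJB9 (1.21) and CHAC1 (1.18). It was 22.5, 21.7 and 41.2 CPM in control, 17.6, 24.0 and 27.0 CPM in DHA oil and 28.5, 41.0, 25.8 and 26.7 CPM in fish oil. Control replicate 3 and fish oil replicate 2 were high and DHA oil replicate 1 was low. The log2 fold change of ATF3 between the oils was 0.42 (-0.09 to 0.92, adjusted p = 0.875), and 0.23 without fish oil replicate 2. Against control it was -0.31 (-0.85 to 0.23) with DHA oil, and 0.05 without control replicate 3.

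**Figure D2:**
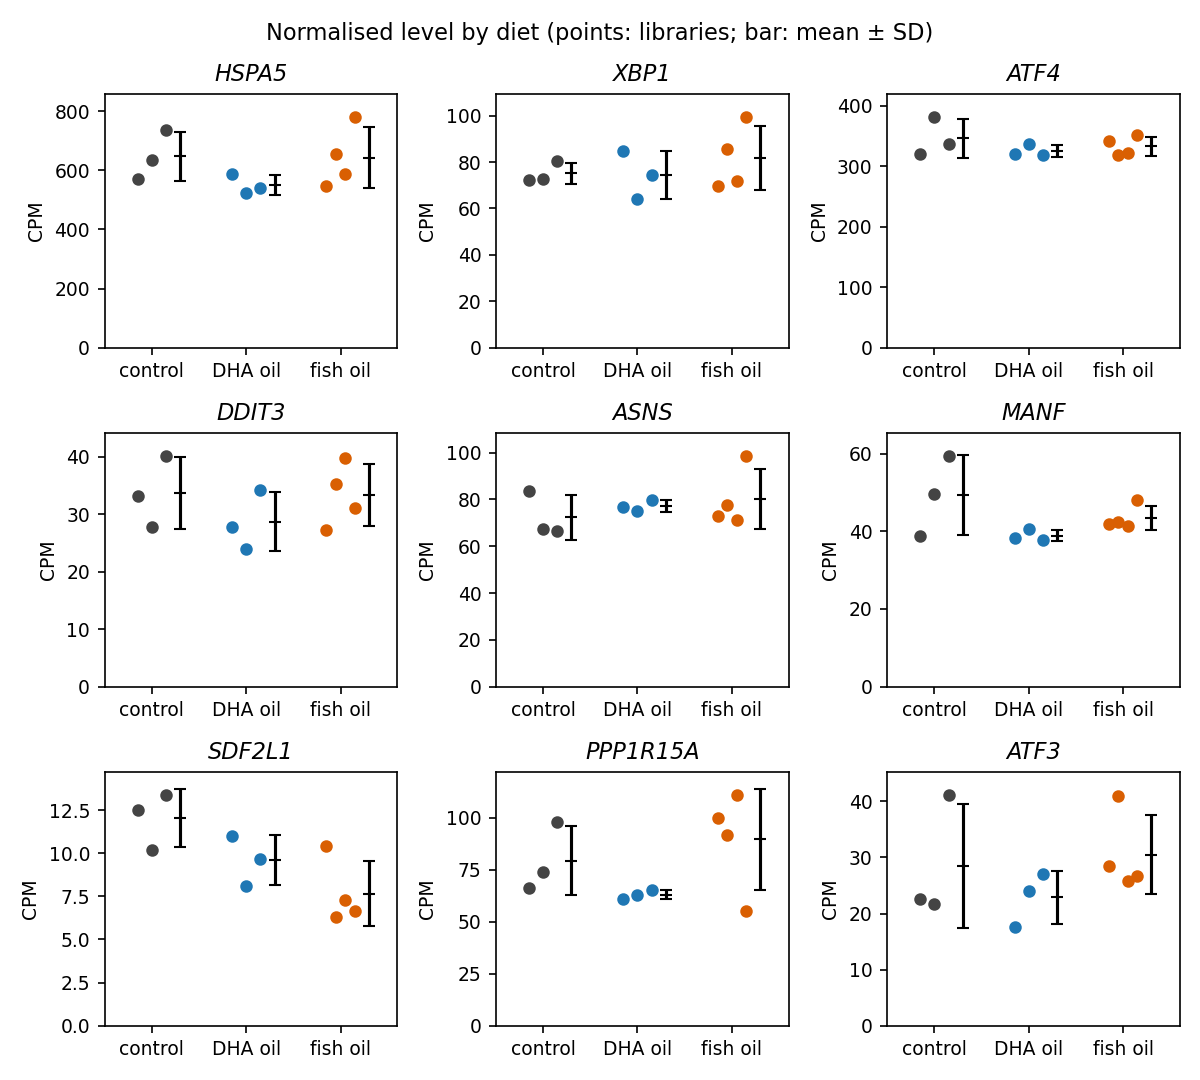
CPM of 9 of the genes in each library (points, coloured by diet), with the mean and SD of each diet (n = 3, 3 and 4) beside them. Vertical axes start at 0. The diets overlap for HSPA5, XBP1, ATF4, DDIT3, ASNS and ATF3. The DHA oil libraries of PPP1R15A lie below all controls, at 60.7 to 65.1 CPM.

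The ER chaperones and co-chaperones number 11 and are the main outputs of ATF6 and XBP1. HSPA5 (BiP, ENSG00000044574), the Hsp70 of the ER and the usual readout of the response, stood at 570, 636 and 735 CPM in control, 589, 524 and 542 CPM in DHA oil and 547, 654, 589 and 782 CPM in fish oil. The means were 647 ± 82.9 (SD, n = 3), 552 ± 33.8 (SD, n = 3) and 643 ± 103 (SD, n = 4). DHA oil replicate 1 exceeded control replicate 1, so the groups overlapped. HSPA5 thus had a log2 fold change of -0.23 (-0.56 to 0.10) with DHA oil, which was -0.13 without control replicate 3, and of -0.01 (-0.31 to 0.30) with fish oil.

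SDF2L1 (ENSG00000128228), a partner of the ER Hsp40 DNAJB11 in the handling of unfolded chains, had the largest difference of the list against control. It stood at 12.5, 10.2 and 13.4 CPM in control, 11.0, 8.11 and 9.69 CPM in DHA oil and 10.4, 6.30, 7.30 and 6.64 CPM in fish oil, from raw counts of 56 to 118. Fish oil replicates 2, 3 and 4 were the 3 lowest libraries, while fish oil replicate 1 lay within the range of the controls. The log2 fold change was -0.67 ± 0.21 (SE) with fish oil (-1.12 to -0.21, unadjusted p = 0.00687, adjusted p = 0.999) and -0.33 (-0.81 to 0.15) with DHA oil. For both oils together it was -0.50 (-0.90 to -0.10, unadjusted p = 0.0183, adjusted p = 1.00). By p, SDF2L1 ranked 84 of the 16013 genes with fish oil, and its log2 fold change was -0.45 without fish oil replicates 2 and 4. In that run its unadjusted p with fish oil was no longer under 0.05, as it was in every other run. For both oils together, the unadjusted p was no longer under 0.05 without control replicate 1 or without control replicate 3.

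MANF (ENSG00000145050), a secreted ER stress protein that binds HSPA5, had the smallest p for DHA oil. Its level was 38.9, 49.5 and 59.5 CPM in control, 38.4, 40.6 and 37.7 CPM in DHA oil and 42.0, 42.5, 41.3 and 48.1 CPM in fish oil. The controls spread over the whole range, and control replicate 1 lay among the DHA oil libraries. MANF differed on the log2 scale by -0.34 (-0.66 to -0.02, unadjusted p = 0.0393, adjusted p = 1.00), and -0.18 without control replicate 3. The unadjusted p was no longer under 0.05 without control replicate 2 or 3 or without any 1 of the DHA oil libraries. The 4 fish oil libraries lay above the 3 DHA oil libraries for MANF, the only gene of the list with no overlap between the oils (1 of 31, against 4.95% of all genes).

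DNAJB9, a co-chaperone that restrains ERN1, was measured at 29.8, 28.1 and 33.2 CPM in control, 35.2, 22.1 and 35.9 CPM in DHA oil and 25.8, 38.5, 30.6 and 51.3 CPM in fish oil. DHA oil replicate 2 and fish oil replicate 4 marked its extremes, a range of 2.31-fold. The log2 fold change of DNAJB9 with fish oil was 0.27 (-0.19 to 0.74), and -0.10 without fish oil replicates 2 and 4. Among the remaining chaperones, DNAJC3 had a log2 fold change of -0.14 with fish oil and of -0.17 between the oils, neither past the threshold. With both oils together, log2 fold changes were -0.04 for HSP90B1 (GRP94), -0.08 and 0.09 for the lectin chaperones CALR and CANX, -0.09 for the nucleotide exchange factor HYOU1, -0.05 for DNAJC3, -0.06 for CRELD2 and -0.01 for DNAJB11, each with an interval that spans 0. For DNAJB11 that interval was -0.26 to 0.24.

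PDIA4 and PDIA6, which form and rearrange disulfide bonds in the ER, had log2 fold changes of -0.05 and -0.03 with DHA oil and of 0.14 and 0.22 with fish oil. Their fish oil means, 483 ± 79.9 and 480 ± 119 CPM (SD, n = 4), rest in part on replicate 4, at 602 and 638 CPM. In the ER-associated degradation group, HERPUD1 and SEL1L belong to the HRD1 ubiquitin ligase complex, and EDEM1 trims glycans on misfolded proteins. SEL1L was 96.6, 103 and 91.4 CPM in control, 119, 103 and 110 CPM in DHA oil and 87.4, 117, 102 and 107 CPM in fish oil. Each DHA oil library lay above each control, although the closest pair rounds to the same value, and fish oil overlapped both groups. With DHA oil, the log2 fold change of SEL1L was 0.20 (-0.08 to 0.47, adjusted p = 1.00). HERPUD1 and EDEM1 differed from control by 0.01 and -0.00 with DHA oil and by 0.11 and 0.10 with fish oil.

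Among the outputs of the stress response, PPP1R15A (GADD34, ENSG00000087074) had the smallest p between the oils. It encodes the phosphatase subunit that reverses the phosphorylation of eIF2 alpha and so ends the translational block. Its level was 66.1, 73.8 and 97.8 CPM in control, 60.7, 63.0 and 65.1 CPM in DHA oil and 100, 91.4, 111 and 55.2 CPM in fish oil. Fish oil replicates 1 to 3 lay above every DHA oil library and replicate 4 lay below all of them. The log2 fold change of PPP1R15A between the oils was 0.51 ± 0.20 (SE; 0.08 to 0.93), with an unadjusted p of 0.0222 and an adjusted p of 0.875. It ranged from 0.38 without fish oil replicate 3 to 0.68 without fish oil replicate 4 when single libraries were left out, and was 0.75 without replicates 2 and 4, with no call in any case. The unadjusted p was no longer under 0.05 without fish oil replicate 1 or 3 or without DHA oil replicate 1 or 2. Against control it was -0.33 (-0.78 to 0.12) with DHA oil, and -0.15 without control replicate 3. With fish oil it was 0.18 (-0.24 to 0.59), between 0.05 (without control replicate 1 or fish oil replicate 3) and 0.35 (without control replicate 3 or fish oil replicate 4) when 1 library was left out.

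CHAC1, a glutathione-degrading target of ATF4, was the least counted of the 31 genes, with 28 to 65 reads per library. It stood at 4.35, 5.75 and 4.56 CPM in control, 4.26, 4.50 and 6.85 CPM in DHA oil and 5.76, 2.89, 4.95 and 5.29 CPM in fish oil. Its intervals were the widest of the list in each pairwise comparison, -0.53 to 0.72 with DHA oil and -0.66 to 0.54 with fish oil. TRIB3, a pseudokinase induced by ATF4 and DDIT3, had the smallest change of all with both oils together, at -0.00 (-0.33 to 0.33). SESN2, which couples the response to mTORC1 signalling, differed by 0.09 with DHA oil and by 0.03 with fish oil.

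The amino acid and one-carbon enzymes are known targets of ATF4. ASNS (ENSG00000070669), asparagine synthetase, was 83.5, 67.3 and 66.4 CPM in control, 76.8, 74.9 and 79.9 CPM in DHA oil and 72.9, 77.5, 71.1 and 98.7 CPM in fish oil. Control replicate 1 lay above all DHA oil libraries and fish oil replicate 4 above all others. Its log2 fold change was 0.09 (-0.22 to 0.40) with DHA oil and 0.15 (-0.14 to 0.43) with fish oil. MTHFD2, the mitochondrial folate enzyme, stood at 58.9, 53.6 and 45.4 CPM in control, 64.1, 56.1 and 64.1 CPM in DHA oil and 52.0, 67.9, 55.0 and 82.8 CPM in fish oil. The diets overlapped, with control replicate 3 lowest and fish oil replicate 4 highest. Its log2 fold change was 0.22 (-0.14 to 0.58) with DHA oil and 0.29 (-0.05 to 0.63) with fish oil, the highest of the list in each case, and 0.02 for fish oil without replicates 2 and 4. PHGDH and PSAT1, of the serine pathway, and SHMT2, which passes on its carbon, had log2 fold changes of -0.07, 0.08 and -0.05 with DHA oil and of -0.05, 0.17 and 0.06 with fish oil.

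Over the list, medians lay close to 0. The median log2 fold change was -0.04 with DHA oil (0.00 over all genes), 0.06 with fish oil (0.01 over all genes) and 0.10 between the oils (0.01 over all genes). Values above 0 were found for 11 of 31 genes with DHA oil (50.8% of all genes), 18 of 31 with fish oil (51.5%) and 24 of 31 between the oils (52.1%). With scaling by library totals only, the counts were 14, 23 and 24. With fish oil replicates 2 and 4 left out, 12 were above 0 with fish oil and 15 between the oils, and the latter was 19 without replicate 4 alone and 26 without replicate 2 alone. Without control replicate 3, 19 genes were above 0 with DHA oil, where the median turned to 0.03, and 24 with fish oil. For both oils against control, 16 of 31 were above 0 (50.4%) and the median was 0.01. Groups did not overlap for 3 of 31 genes between DHA oil and control (10.6% of all genes), for SEL1L above and for PPP1R15A and HSP90B1 below the controls. The gap for HSP90B1 was small, with 911 CPM in DHA oil replicate 1 against 913 CPM in control replicate 1. Its log2 fold change with DHA oil was -0.09 (-0.40 to 0.23). No gene of the list was free of overlap between fish oil and control (0 of 31, against 3.74%), or between both oils and control (0 of 31, against 1.12%).

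Libraries of the same diet also differed, and part of this may be technical. The spread of a gene between such libraries beyond counting error is given as the biological coefficient of variation. Its median was 0.135 over the 31 genes and 0.158 over all genes tested, and 10 of the 31 (32.3%) exceeded the value of genes of like expression, as did 34.5% of all genes. ATF4 was the steadiest of the list (0.108), followed by ATF6 (0.110). For ATF3 the value was 0.214, against 0.159 for genes of like expression. For CHAC1 it was 0.216, below the 0.229 for genes of like expression. From the lowest to the highest of the 10 libraries, ATF4 ranged over 1.20-fold, HSPA5 over 1.49-fold, CHAC1 over 2.27-fold and ATF3 over 2.32-fold.

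**Figure D3:**
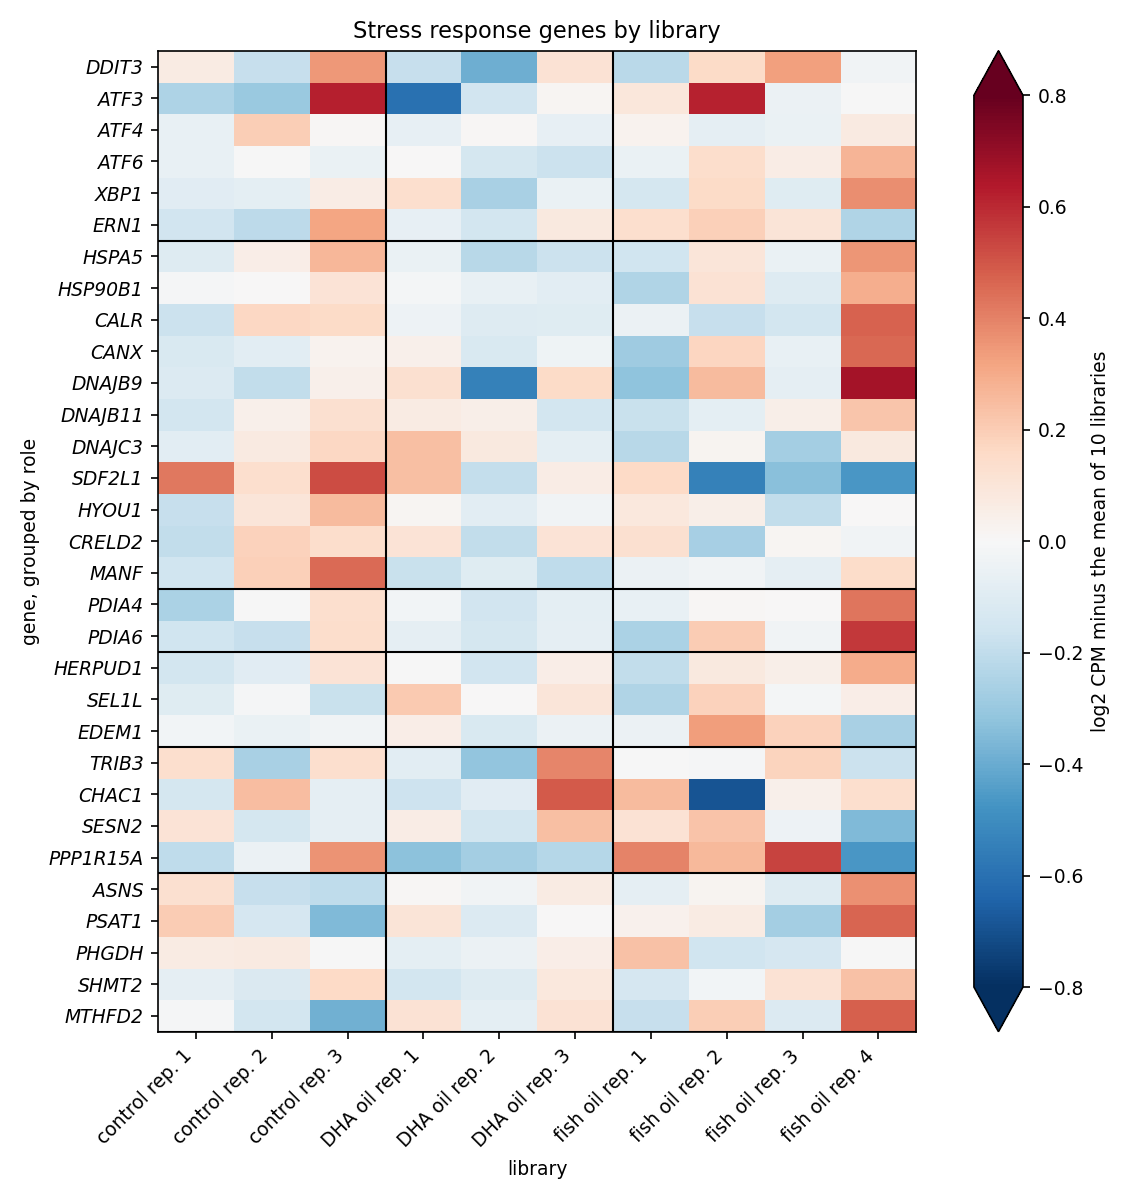
Level of each of the 31 genes in each library, as log2 CPM minus the gene's mean over the 10 libraries (red above, blue below). Rows are genes grouped by role and columns are libraries grouped by diet. In fish oil replicate 4, 15 genes are at their highest (48.4%, against 24.6% of all genes). ERN1, EDEM1, SESN2 and PPP1R15A are lowest there (12.9%, against 22.6% of all genes).

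Fish oil replicate 4 was the highest of the 10 libraries for 15 of the 31 genes (48.4%), against 24.6% of all genes tested. They include the chaperones HSPA5, HSP90B1, CALR, CANX, DNAJB9 and DNAJB11, the isomerases PDIA4 and PDIA6, the factors ATF6 and XBP1, HERPUD1, and the enzymes ASNS, PSAT1, SHMT2 and MTHFD2. CALR was at 1100 CPM there against 699 to 770 in the other fish oil libraries, and CANX at 768 against 460 to 631. The same library held the lowest value of ERN1, EDEM1, SESN2 and PPP1R15A (12.9% of the list, against 22.6% of all genes). By role, its median deviation from the 10-library mean was 0.50 on the log2 scale for the isomerases, 0.37 for the amino acid and one-carbon enzymes and 0.22 for the chaperones. The sensors and transcription factors had a median of 0.03 and the ER-associated degradation genes one of 0.05. For TRIB3, CHAC1, SESN2 and PPP1R15A together it was -0.26, and over all genes it was 0.01. DNAJB9, at 0.67, was the only member outside the range from the 5th to the 95th percentile of all genes in that library, -0.80 to 0.59. The part of the overall shift of this library in these values was not tested.

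Control replicate 3 showed another pattern. It was the highest library for 6 of the 31 genes (19.4%, against 7.99% of all genes), which were DDIT3, ATF3, ERN1, SDF2L1, HYOU1 and MANF. It also held the lowest of ASNS, PSAT1 and MTHFD2 (9.68%, against 9.39%). All 11 chaperones lay above their 10-library means in this library, by a median of 0.16 on the log2 scale. Of all 16013 genes, 8087 lay above their means there. The amino acid and one-carbon enzymes had a median of -0.20. ATF3 and SDF2L1 were above the 95th percentile of all genes there. DHA oil replicate 2 held the lowest value of HSPA5, DDIT3, XBP1, DNAJB9 and TRIB3 (16.1%, against 6.77% of all genes). In it, 4 of the 31 genes lay above their means, against 7952 of all 16013 genes. In DHA oil replicate 3, TRIB3, CHAC1 and SESN2 had their highest values, 47.2, 6.85 and 32.0 CPM. These are 9.68% of the list, near the 7.54% of all genes that were highest there.

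Relations between genes of the list were examined over the 10 libraries for 6 pairs, with permutation tests of 100000 resamples and adjustment over the 6. HSPA5 and HSP90B1, both ER chaperones, varied together, with Pearson's r = 0.868 (permutation p = 0.00073, adjusted p = 0.00438) and Spearman's rho = 0.818 (permutation p = 0.00583, adjusted p = 0.035). Without the 2 libraries farthest from the HSPA5 median, control replicate 3 and fish oil replicate 4, r was 0.683 (permutation p = 0.0578). HSPA5 and HERPUD1 gave r = 0.796 (permutation p = 0.00492, adjusted p = 0.0148) and rho = 0.745 (permutation p = 0.018, adjusted p = 0.0541). That r was 0.473 without the same 2 libraries (permutation p = 0.233). Leaving out the extremes of HSPA5 narrows its range and leaves 8 libraries, which can lower r in itself. These values therefore cannot decide how far the relations depend on those 2 libraries. Taken as deviations from the diet means, r was 0.899 and 0.910.

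The other 4 pairs did not pass the test. HSPA5 with ASNS gave r = 0.236 (permutation p = 0.514, adjusted p = 0.691) and rho = -0.042 (permutation p = 0.918, adjusted p = 0.918), and r was -0.289 without the 2 farthest libraries. ATF4 with ASNS, a factor and its target, gave r = -0.182 (permutation p = 0.576, adjusted p = 0.691) and rho = -0.333 (permutation p = 0.349, adjusted p = 0.698). Without its 2 farthest libraries, control replicate 2 and fish oil replicate 4, r was -0.645 (permutation p = 0.0872). TRIB3 with CHAC1 gave r = 0.208 (permutation p = 0.574, adjusted p = 0.691) and rho = 0.224 (permutation p = 0.537, adjusted p = 0.806). PSAT1 with PHGDH gave r = 0.143 (permutation p = 0.693, adjusted p = 0.693) and rho = 0.091 (permutation p = 0.809, adjusted p = 0.918). Without their 2 farthest libraries, r was -0.280 for TRIB3 with CHAC1 and 0.257 for PSAT1 with PHGDH.

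**Figure D4:**
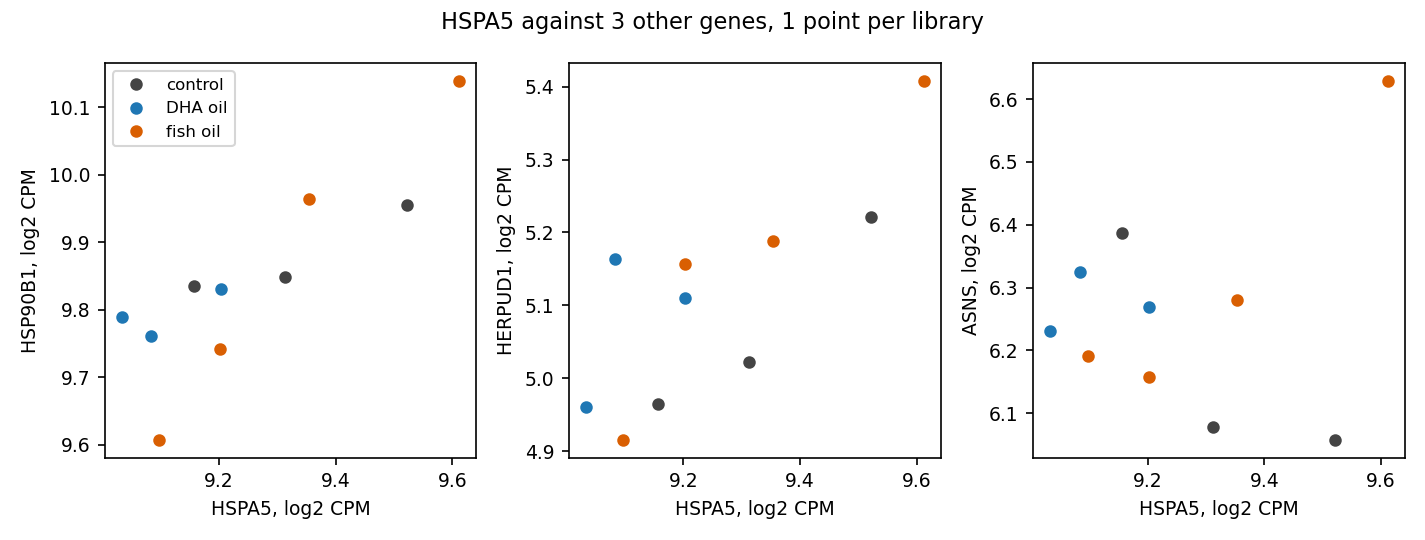
Log2 CPM of HSP90B1, HERPUD1 and ASNS against that of HSPA5, 1 point per library and coloured by diet. HSP90B1 (r = 0.868) and HERPUD1 (r = 0.796) increase with HSPA5, and ASNS (r = 0.236) has fish oil replicate 4 as its highest point.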

How the data were processed

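The authors deposited 1 table of raw counts of reads per human gene for 10 libraries. Per the labels' protocols, libraries came from a stranded mRNA kit, read as single 75 bp ends. STAR, HTSeq 0.9.0 and the GRCh38 build are named, per the submitters' processing notes. The labels name mouse as the organism, while the identifiers are human. Not given in the sources used here are the annotation, the strand setting and whether mouse reads were removed, so mouse reads alike enough to human genes could be counted, and no positions are printed.

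The 31 genes and all lists and tests were chosen with earlier results of these data known. Reference tables matched 0 identifiers, so symbols came with the list, and further pathway genes and cell type markers listed by symbol were not analysed. Counts were filtered with filterByExpr (minimum count 10), given TMM scaling factors and fitted in edgeR 4.0.16 (R 4.3.3) for the quasi-likelihood test, in 1 fit of 10 libraries with diet as the factor. P-values were adjusted by Benjamini-Hochberg over 16013 genes, with a threshold of 0.05. SE is the log2 fold change divided by the root of F, and intervals are 95%. Log2 CPM uses a prior count of 2. Only the edgeR test was also run on simulated data, and the outcome is not given here. The permutation tests, DESeq2 and limma-voom were not. Genes described with every library are the leading gene of each arm, the 3 with the smallest p in each pairwise comparison and the 3 with the largest range. The 3 with the smallest change with both oils have intervals. Alternatives included DESeq2 1.42.0 and limma 3.58.1.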

Additional observations from a re-analysis of the deposited data

Results flagged for a closer look

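Among the 31 genes, 1 passed Dixon's rule for a fish oil library far from the other 3. It was PDIA4, a disulfide isomerase, with 602 CPM in fish oil replicate 4 against 430 to 450 CPM in the others. The rule takes the gap to the nearest library as a share of the range of the group, here 0.883. CALR (0.824, fish oil replicate 4), ATF3 (0.822, fish oil replicate 2) and MANF (0.820, fish oil replicate 4) fell just short of its limit. PDIA4 is therefore not set clearly apart from these genes. Of all genes tested, 5.85% passed the rule in this group, against 3.23% of the list, and chance gives about 1 in 20. No gene of the list had all DHA oil libraries on one side of the control mean and all fish oil libraries on the other (0 of 31, and 134 of 16013 genes in all).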

How the results depend on the processing

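The count of genes of the list called was 0 under every alternative run. These were other scaling, no or a strict filter on low counts (minimum count 50, which left 30 of the 31 genes), DESeq2, limma-voom and the replicate block. Each library was also left out in turn, and fish oil replicates 2 and 4 together. All of these covered the 4 comparisons, while fits of only the groups compared covered the pairwise ones. Of all genes tested, between 0 and 76 were called in these runs. Counts at an unadjusted p under 0.05 ran from 0 to 4 for DHA oil against control (4 with limma-voom), 1 to 2 for fish oil against control, 0 to 3 between the oils and 0 to 2 for both oils. With the replicate number as a block, the median log2 fold changes were -0.04, 0.02, 0.02 and -0.01, and 2, 2, 1 and 2 genes had an unadjusted p under 0.05. Only fish oil has a replicate 4, so the block fits that library by itself and in effect leaves it out. Between the oils, the median was 0.02 and 19 genes were above 0, both with the block and without fish oil replicate 4. Correlations of deviations from the diet means, between libraries of different diets, ran from -0.171 to 0.182 for the same number. They ran from -0.237 to 0.266 for different numbers. The numbers were therefore not treated as pairs in the main fit, although so few libraries cannot exclude pairing. Of the 17 genes followed, the sign changed in 18 of 322 values for DHA oil (in 7 genes), 39 of 322 for fish oil (12 genes), 23 of 322 between the oils (7 genes) and 40 of 305 for both (11 genes). Most of these genes were chosen from the same data, for a small p, a wide range or a small change. The counts therefore do not describe the stability of the list. TRIB3, ERN1 and DNAJB11, chosen for the smallest change with both oils, gave 8, 7 and 6 of the 40. Without fish oil replicates 2 and 4, r was 0.73 for HSPA5 with HSP90B1 (permutation test, adjusted p = 0.112) and 0.58 for HSPA5 with HERPUD1 (adjusted p = 0.188), neither past the threshold, with 8 libraries. In the same 8 libraries r was -0.69 for HSPA5 with ASNS, against 0.24 over all libraries. For ATF4 with ASNS r was -0.67, against -0.18. For TRIB3 with CHAC1 and PSAT1 with PHGDH r was 0.35 and 0.39, against 0.21 and 0.14. CHAC1, with 28 to 65 reads per library, was tested on the fewest reads of the list.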
